A study of Oncorhynchus kisutch with 221 samples.

Results

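The 100 array probes described here fell at every step from river parr to ocean fish of fall in coho salmon (Oncorhynchus kisutch), measured in white muscle. They were chosen by a rule on season medians. Of 43636 probes, 18589 had a value in at least 50% of the fish of each of the 6 season labels. Of these, 621 also had a standard deviation (SD) among fall fish below 1 and a fall median at least 0.5 below the smolt median. The 100 were the probes of the 621 whose smallest fall among the 4 steps parr to smolt, smolt to spring, spring to summer and summer to fall was largest. Since these medians chose the probes, every difference among the 5 seasons is given as a description and carries no test. Of the 621, 110 had all 4 steps below 0, so nearly every probe of that shape within the limits is among the 100. Over all 18589 probes, 515 had 4 steps below 0, which is 2.77%.

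Muscle RNA of 221 single fish was measured on 2-colour arrays, each fish labelled with Alexa 555 beside a muscle RNA pool labelled with Alexa 647. Values are read as log2 ratios of fish over pool, so that 0 is the level of the pool and a difference of 1 between fish is a factor of 2 in the ratio. This reading is likely but is not stated in the sources used here. Over 376 probes with high variance, the log2 of the mean linear ratio had a median of -0.03 read this way and 1.62 read the other way, and this should lie near 0 when the pool holds these same fish. Arrays correlated at -0.426 or above, and 90 of 24310 pairs were below -0.3. The direction was kept since no fish carried the other dye, per the labels.

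The 9 parr were hatchery fish from the Chilliwack River in 2008, with a mean fork length of 5.09 cm ± 0.237 (SD, n = 9). The 48 smolts came from 5 rivers. Those of the Chilliwack (8 fish) were wild and of 2008, and the others were of 2009: 10 hatchery fish from the Chehalis, 9 hatchery fish from the Puntledge, 6 wild fish from the Salmon River, and 9 hatchery and 6 wild fish from the Capilano. The 15 spring fish were all wild and were caught in the southern Strait of Georgia in 2009. The 64 summer and 76 fall fish were wild or of hatchery origin and came from the southern Strait, the northern and middle Strait and the west coast of Vancouver Island, 7 and 8 of them in 2008 and the rest in 2009. The 9 winter fish, of 2009, came from the northern and middle Strait and the west coast, with a mean length of 34.5 cm ± 2.35 (SD, n = 9). Of these, 5 were of hatchery origin and 4 were wild. The season labels are groups of separate fish, not the same fish followed in time. Parr differed from most other fish in year, origin and river as well as in stage, and these cannot be told apart in the full comparison.

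White muscle is the bulk of a salmon's trunk and is made mostly of fast, glycolytic fibres used for bursts of swimming. Parr are the young river stage. They become smolts, which are ready for seawater, and in the sea they grow fast, both by making new muscle fibres and by enlarging those they have. No identifier of a probe was found in the gene table used here, so what the 100 transcripts encode is not known here, roles cannot be given, and the muscle identity of the tissue could not be checked against marker genes. Whole tissue was used, so a lower ratio can mean fewer cells of a type or less of the RNA per cell, which cannot be told apart.

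The median of the 100 season medians went from 0.46 in parr to 0.14 in smolts, -0.04 in spring, -0.18 in summer and -0.54 in fall. In parr 95 of the 100 lay above the pool, in smolts 78, in spring 43, in summer 13 and in fall none. Over all 18589 measured probes the same median stayed between -0.01 and 0.01 in every season. From parr to fall a probe of the set fell by a median of 0.98 on the log2 scale, with quartiles of -1.21 and -0.83 and a range from -4.97 to -0.55. A fall of at least 1 was found for 48 of the 100 and for 3.84% of all measured probes, a gap that the rule built in.

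**Figure D1:**
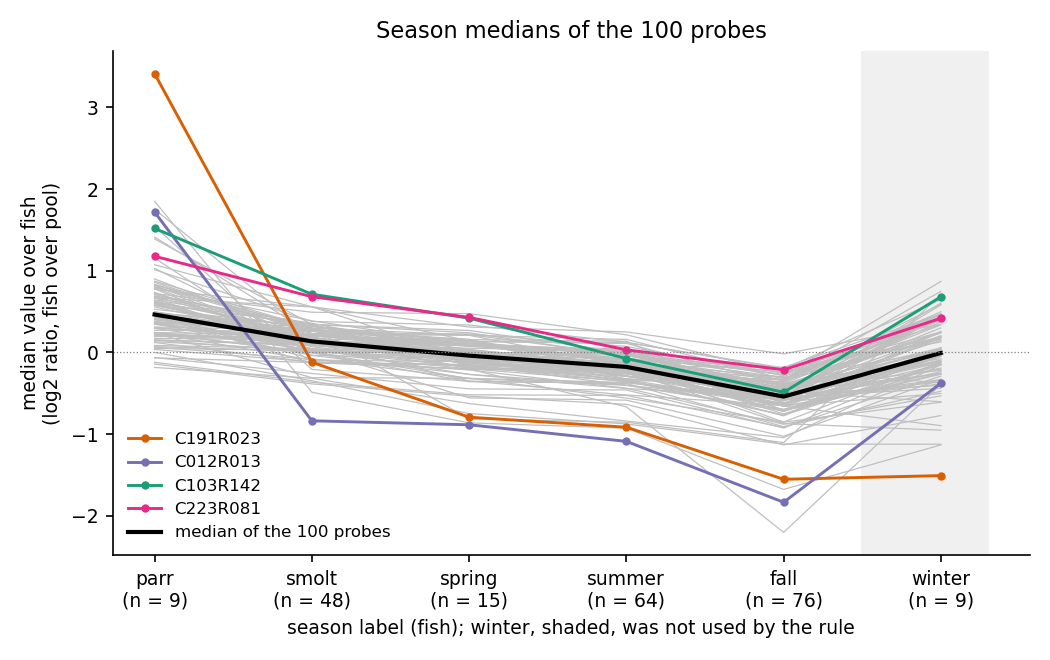
Season medians of the 100 probes (grey lines, y axis, log2 ratio of fish over pool) by season label (x axis, with the number of fish). The black line is the median over the 100 probes, from 0.46 in parr to -0.54 in fall and -0.01 in winter; 4 probes described in the text are coloured, and C191R023 starts far above the others at 3.41.

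The fall was not spread evenly over the 4 steps. The median step was -0.31 from parr to smolt, -0.15 from smolt to spring, -0.14 from spring to summer and -0.33 from summer to fall. The first and the last step each made up about 31% of a probe's whole fall in the median (30.9% and 31.0%), and the middle steps 15.3% and 13.5%. Parr to smolt was the largest step for 42 probes, summer to fall for 42, smolt to spring for 13 and spring to summer for 3. No probe of the set fell by 0.5 or more from spring to summer, whereas 31 did from parr to smolt and 19 from summer to fall.

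C103R142 and C223R081 were first in the order of the rule, with the largest value of their smallest fall. C103R142 was measured in 8 of the 9 parr, at 1.17 to 1.82 with a median of 1.52. It had a median of 0.71 in 32 smolts (-0.55 to 1.65), 0.42 in 8 spring fish (-0.55 to 1.09), -0.08 in 38 summer fish (-1.40 to 1.63) and -0.49 in 48 fall fish (-1.56 to 1.51). Every parr with a value lay above every spring fish, but both smolts and fall fish reached into the range of parr. It had no value in 28 of the 76 fall fish, so its levels rest on fewer fish than those of most others in the set.

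C223R081 was measured in all 221 fish. Its median was 1.18 in parr (0.33 to 2.89), 0.68 in smolts (-1.88 to 1.79), 0.43 in spring (-1.44 to 1.71), 0.03 in summer (-2.46 to 2.36) and -0.21 in fall (-3.04 to 2.20). The medians fall in order while the ranges of all 5 seasons overlap, and the SD within fall, at 0.92, is close to the limit of the rule.

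The largest falls from parr to fall belonged to C191R023 and C012R013, and most of both lay in the first step. C191R023 had a median of 3.41 in parr (-0.56 to 3.79) and of -0.12 in 47 smolts (-2.08 to 2.08), then -0.79 in spring (-2.34 to 3.47), -0.92 in summer (-2.87 to 1.14) and -1.55 in fall (-2.65 to 1.30). The other 8 parr lay at 2.91 or above, higher than every smolt, summer and fall fish. The highest spring fish, at 3.47, lay within the range of these 8 parr. In turn 1 parr, replicate 9, lay at -0.56 among the ocean fish. C012R013 had a median of 1.72 in parr (0.97 to 2.26) and of -0.84 in 43 smolts (-2.94 to 2.05), and ended at -1.84 in 67 fall fish (-3.74 to 0.84). Its parr all lay above every fall fish.

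At the edge of the rule the smallest step was close to 0. The last probes inside were C210R129, with steps of -0.24, -0.01, -0.19 and -0.36, and C047R151, with -0.01, -0.39, -0.01 and -0.51. The first probes outside were C265R023, with -0.04, -0.01, -0.07 and -0.43, and C189R017, with -0.41, -0.38, -0.15 and -0.0042. Both pairs have a step that is far smaller than the spread among fish, so the border of the set is not a border in the data.

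Taken fish by fish, the mean over the 100 probes was 0.51 ± 0.18 (SD, n = 9) for parr, 0.04 ± 0.49 (SD, n = 48) for smolts, -0.11 ± 0.45 (SD, n = 15) in spring, -0.19 ± 0.39 (SD, n = 64) in summer and -0.56 ± 0.29 (SD, n = 76) in fall. Each of these means is over the probes of the set with a value in that fish. All 9 parr and 5 of the 76 fall fish lay above 0. The lowest parr, replicate 9 at 0.10, lay above 73 of the 76 fall fish, 51 of the 64 summer fish, 10 of the 15 spring fish and 23 of the 48 smolts. Parr and fall fish were thus nearly separate, while smolts covered the whole range from -0.82 to 0.84.

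**Figure D2:**
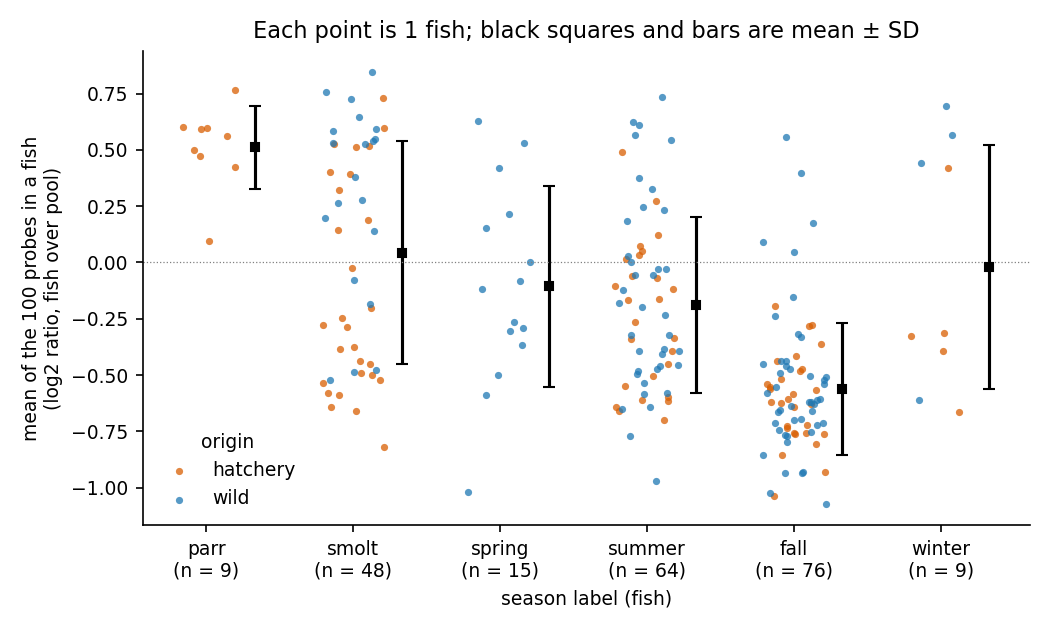
Mean of the 100 probes in each fish (y axis, log2 ratio of fish over pool) by season label (x axis), with hatchery fish in orange and wild fish in blue; black squares and bars are the mean and SD. Parr sit between 0.10 and 0.77, smolts spread from -0.82 to 0.84, and 71 of the 76 fall fish lie below 0.

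The smolts differed by river and origin, which the rule did not use, and these values are given without a test because they are a mean over chosen probes. Wild Capilano smolts had a mean over the 100 probes of 0.46 ± 0.48 (SD, n = 6) and wild Chilliwack smolts of 2008 one of 0.45 ± 0.20 (SD, n = 8), at the level of parr. Chehalis hatchery smolts lay at 0.17 ± 0.48 (SD, n = 10), wild smolts of the Salmon River at -0.10 ± 0.40 (SD, n = 6) and Capilano hatchery smolts at -0.12 ± 0.43 (SD, n = 9). Puntledge hatchery smolts were lowest at -0.48 ± 0.19 (SD, n = 9), with 12 of the 100 probes above 0 in their median, against 97 in wild Capilano and 86 in wild Chilliwack smolts. The Puntledge mean is near that of fall fish. It rests on fewer probes in most of its fish. Puntledge smolts had values for between 62 and 100 of the 100 probes. Wild Capilano smolts had values for between 94 and 100, and Chilliwack smolts for between 93 and 100. Neighbours in this order differed by less than the larger of their SDs. Slides went with part of the spread within rivers. Capilano hatchery replicates 15, 16, 18 and 19 shared a slide and lay between -0.54 and -0.25. Replicates 17 and 21 shared another and lay at 0.51 and 0.39. On a slide with Capilano smolts of both origins, hatchery replicate 23 lay at -0.29 and wild replicate 29 at -0.48. The part of slide in the differences by river and origin was not tested.

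Because the seasons differed in river, year, origin and area, each step was also described within sets of fish that were alike in some of these. These are the fish whose medians chose the probes, so lower values in the later season were largely built in and support nothing. The step from parr to smolt depended on which smolts were used. Against the 8 smolts of the same river and year, 51 of the 100 probes were lower in smolts and 49 higher, with a median step of -0.01, and 51.6% of all measured probes were lower. Against the 40 smolts of 2009, from other rivers, all 100 were lower and the median step was -0.45. The fall seen from parr to smolt thus was not found as a shift of the whole set within the Chilliwack River, although single probes kept it: the largest fall there was -3.23, and the largest rise was 1.51. Those parr were of hatchery origin and those smolts wild, so stage and origin cannot be told apart in that river.

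Among wild fish of 2009, 95 of the 100 probes were lower in the 15 spring fish than in the 12 smolts, with a median step of -0.30. With the hatchery smolts of 2009 included, 64 were lower and the median step was -0.05. From spring to summer 95 were lower among wild fish of 2009 from the southern Strait (15 and 11 fish, median step -0.32). Of all measured probes 48.3%, 48.7% and 50.2% were lower in these sets of fish.

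The summer to fall step differed in size between areas and years. Among fish of 2009, 94 of the 100 probes were lower in fall in the northern and middle Strait (32 and 32 fish, median step -0.35), 79 on the west coast (8 and 10 fish, -0.41) and 68 in the southern Strait (17 and 26 fish, -0.13). Among the Strait fish of 2008 (7 and 8 fish), 99 were lower, with a median step of -0.996. Hatchery fish of 2009 had 87 lower and wild fish 93. Of all measured probes between 48.4% and 53.1% were lower in these sets. From hatchery smolts to hatchery summer fish of 2009, 69 were lower, with a median step of -0.15.

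**Figure D3:**
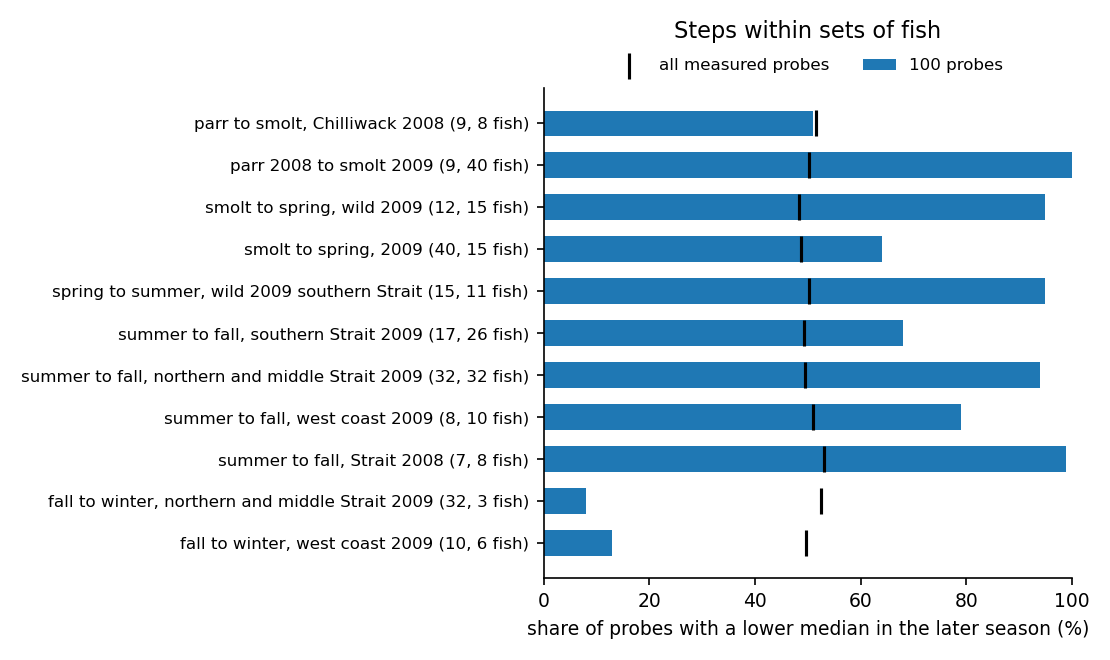
Share of the 100 probes (bars, %) and of all measured probes (black ticks) whose median was lower in the later season, within the sets of fish named on the y axis with the number of fish in each season. The bar for parr to smolt in the Chilliwack River in 2008 stands at 51%, beside the tick, and the bars from fall to winter stand at 8% and 13%.

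Arrays lay on 61 slides, and slides bear on these steps since few held both seasons. The fish on them are those whose medians chose the probes. Lower values in the later season were thus largely built in here too and support nothing. On the 16 slides that held summer and fall fish, the share of the set that was lower in fall ran from 42.4% to 90%. Its median was 68.5%, and it was above 50% on 15 slides. Of all measured probes between 47.3% and 53.2% were lower in fall on these slides. On the slide that held a parr and a smolt 90% were lower in the smolt, against 50.7% of all measured probes. The parr on that slide was replicate 9. The means over the set on that slide were 0.10 in the parr, -0.66 in the smolt, and 0.09 and 0.17 in 2 fall fish. On the other slide with parr and fall fish, parr lay at 0.60 and 0.77 and fall fish at -0.76 and -0.62. On the 5 slides that held smolts and fall fish, the share lower in fall ran from 2.8% to 97.0%. It was above 50% on 4 of them, and lowest on the slide of parr replicate 9. Of all measured probes between 48.6% and 51.9% were lower in fall on these 5 slides. On the 9 slides that held smolts and summer fish the share ran from 11.1% to 99.0%, against 47.1% to 52.4% of all measured probes. With slide effects subtracted from the values, 72 of the 100 probes were lower in smolts than in parr, against 48.4% of all measured probes. From smolt to spring 55 were lower, close to the 50.5% of all probes, with a median step of -0.05. From spring to summer 94 were lower and from summer to fall 97, against 47.3% and 50.6% of all probes, and the median of the whole fall was -0.98.

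The direction turned in winter, whose medians the rule did not use (it used only the share of winter fish with a value). The winter median of 95 of the 100 probes lay above the fall median, with a median difference of 0.62, and the median of the set returned to -0.01. Over all measured probes 49.9% were higher in winter. Of the 621 probes that met the limits of the rule 94.4% were higher, so the return is shared by probes that were low in fall for whatever order of steps. Since the rule chose low fall medians, a part of this difference is built in, and no test was made. The winter median was nearest that of smolts for 26 probes, of spring for 23, of summer for 20, of parr for 19 and of fall for 12.

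C057R042 and C143R139 rose most between the fall and winter medians. C057R042 went from -2.20 in 76 fall fish (-3.95 to 0.17) to -0.39 in 9 winter fish (-3.53 to 1.22), and C143R139 from -1.10 in 73 fall fish (-2.54 to 2.06) to 0.71 in 8 winter fish (-1.19 to 2.68). In both the winter fish covered most of the range of fall fish and reached above it. C250R152 and C010R039 went further down instead, C250R152 from -0.66 to -0.90 (-1.46 to 0.01 in winter) and C010R039 from -0.20 to -0.37 (-1.10 to 1.23 in winter). These falls are smaller than the spread among the 9 winter fish.

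The winter fish were not alike. Replicates 1, 2, 5 and 7 had means over the set of 0.44, 0.57, 0.69 and 0.42, and the other 5 lay between -0.66 and -0.31. Of the 76 fall fish, at most 1 lay above each of the first 4, and between 10 and 48 lay above each of the other 5. The first 4 came from both areas. Origin went with the split in part: replicates 1, 2 and 5 were wild and 7 was a hatchery fish. Replicates 3, 4, 6 and 8 were hatchery fish and 9 was wild. The mean over the set was 0.27 ± 0.60 (SD, n = 4) in wild and -0.26 ± 0.40 (SD, n = 5) in hatchery winter fish. Slides went with the split where winter fish shared one. Replicates 4, 6 and 8 shared a slide, with between 66.0% and 67.8% of their cells empty. Replicates 1 and 5 shared another, with 38.3% and 38.9% empty. The share of empty cells did not follow the split throughout. Replicate 3, at -0.31, had the fewest of all winter fish, at 27.7%. Replicate 9, at -0.61, had 49.3% empty, near the 46.7% of replicate 2. The part of origin, slide and empty cells in the split was not tested. Replicate 4, the lowest, had values for 57 of the 100 probes, and 47.4% of these lay above the fall median, against 99.0% in replicate 2. No winter fish lay between -0.31 and 0.42, so the winter mean of -0.02 ± 0.54 (SD, n = 9) is the level of no fish. By area, 87 of the 100 probes were higher than in fall on the west coast (10 and 6 fish, median difference 0.46) and 92 in the northern and middle Strait (32 and 3 fish, 0.73).

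The contrasts among fish within a season that follow were not used by the rule, though its limit on the SD among fall fish bounds their spread. The interaction of year and season, given last, is an exception. They were tested with limma, fitted over all probes with adjustment over all of them. The first asked whether larger fish of summer and fall differed from smaller ones, with season in the model. The set leaned to lower values in longer fish: 85 of the 100 slopes on fork length lay below 0, with a median of -0.03 per cm and quartiles of -0.04 and -0.01, against 49.4% of all 21797 probes tested. Of the 100, 3 passed the threshold and all 3 fell with length, and over all probes 1.3% did so (283 of 21797). At an unadjusted p below 0.05, 24 of the 100 fell with length and none rose, against 9.62% and 8.7% of all probes. Among the 621 probes that met the limits of the rule, 86.6% of the slopes lay below 0 and 31 passed in that direction, so this lean is shared by probes that were low in fall and is not particular to a steady fall.

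**Figure D4:**
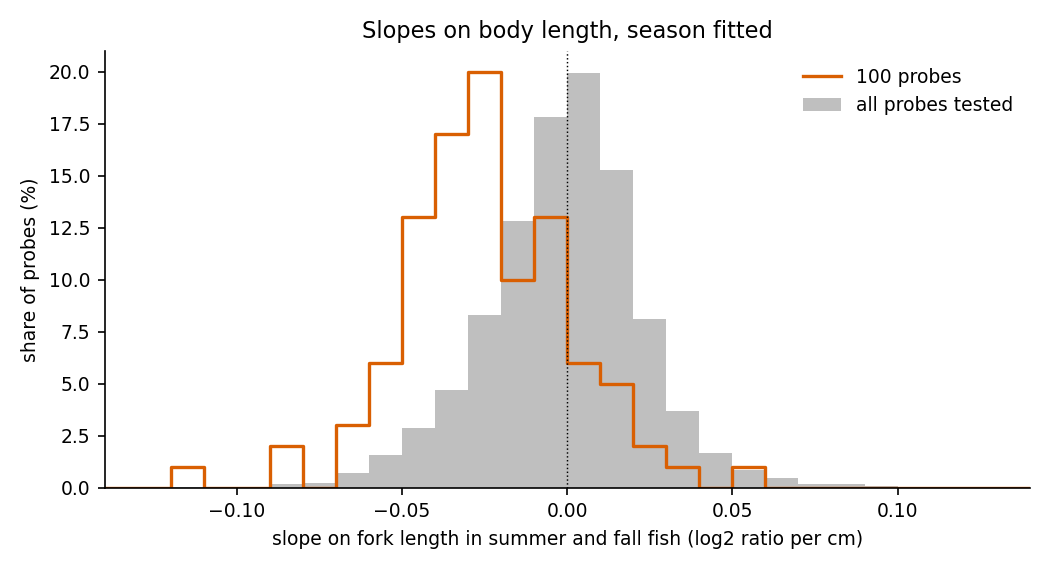
Slopes on fork length with season in the model (x axis, log2 ratio per cm) as shares (y axis, %) of the 100 probes (orange outline) and of all 21797 probes tested (grey bars; 11 of them lie beyond the axis). The orange outline is shifted to the left, with a median of -0.03 per cm and 85 of the 100 probes below 0.

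C081R155 had the steepest slope of the 3. In summer it had a median of -0.80 in the 32 fish below the median length of the season (-2.42 to 1.59) and of -0.93 in the 32 longer fish (-2.55 to 1.27). In fall it had a median of -0.55 in 37 shorter fish (-2.82 to 0.67) and of -1.77 in 38 longer fish (-3.31 to 0.14). Shorter and longer fish overlapped over most of their range in both seasons. Its slope was -0.12 per cm (SE 0.03, limma adjusted p = 0.0193), and the fitted slope was -0.15 in summer fish alone and -0.11 in fall fish alone. It did not pass with slide effects fitted as fixed (-0.12 per cm, limma adjusted p = 0.123).

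C103R142, first in the order of the rule, also fell with length. In summer its median was 0.08 in 20 shorter fish (-0.85 to 1.63) and -0.56 in 18 longer fish (-1.40 to 1.57), and in fall it was -0.33 in 25 shorter fish (-1.20 to 0.94) and -0.51 in 23 longer fish (-1.56 to 1.51). The 2 ranges overlapped in both seasons. Its slope was -0.08 per cm (SE 0.02, limma adjusted p = 0.0251), fitted on the fish in which it had a value, and it also passed with fixed slide effects (-0.10 per cm, limma adjusted p = 0.0193). The third was C248R124, named after its values were seen, with -0.05 per cm (SE 0.01, limma adjusted p = 0.036). With origin, year and area as further covariates none of the 100 passed in limma, although 86 slopes lay below 0. The sign of the slopes was seen in both seasons alone, with 90 of 100 below 0 in summer and 75 in fall, and there too none passed in limma. Whether the slope differed between the seasons was tested as an interaction: no probe passed in limma, and 4 of the 100 had an unadjusted p below 0.05, all with a higher slope in fall, against 2.29% of all probes.

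Fall and summer fish themselves differed in length, at 25.3 cm ± 2.99 (SD, n = 76) and 17.8 cm ± 2.31 (SD, n = 64). With length in the model the mean difference between fall and summer of a probe of the set moved from a median of -0.36 to -0.23. All 100 were below 0 without length and 87 with it. This step was among those that chose the probes, so values below 0 were largely built in and support nothing. Season and length went together, so their parts can hardly be told apart. In smolts, with river and origin in the model, 47 of the 100 slopes lay below 0 and none passed in limma (0% of all probes). There were 2 below 0 at an unadjusted p below 0.05, against 1.77% of all probes. Of 100 simulated slopes of 0.2 per cm, 15% were recovered in the smolt design. The simulated spread was that of all 48 smolts, river differences included, with no slide effects. The slide correlation fitted in smolts was 0.24. How many slopes of that size would have been seen in these smolts thus cannot be read from the simulation. Body condition, as mass over the cube of length, gave no call among the 100 in summer and fall in limma (0% of all probes). There 67 slopes lay below 0, against 50.6% of all probes and 79.4% of those within the limits of the rule. At an unadjusted p below 0.05 there were 10, against 5.51% of all probes. In summer fish alone 84 of the 100 slopes lay below 0 and in fall fish alone 44, against 49.5% and 51.4% of all probes.

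Place of catch gave 1 call. Fish of the southern Strait had lower values than fish of the northern and middle Strait in 83 of the 99 probes tested, with a median difference of -0.15, against 50.7% of all probes and 85.1% of the probes within the limits of the rule. C140R110 was the probe of the set that passed, and over all probes 0.108% passed in that direction. At an unadjusted p below 0.05, 24 of the 99 were lower in the south, against 6.17% of all probes. In summer it had a median of -0.73 in 13 southern fish (-1.34 to 0.18) and of 0.04 in 27 northern and middle fish (-1.21 to 1.84). In fall it had a median of -0.34 in 20 southern fish (-0.97 to 0.20) and of 0.01 in 24 others (-0.85 to 0.55). The southern median was the lower one in both seasons, and the ranges overlapped. The difference was -0.48 (SE 0.10, limma adjusted p = 0.00454). With fixed slide effects it was -0.28 and did not pass in limma, and the lean of the set turned, with 26 of 99 probes below 0. West coast and Strait fish of 2009 differed at no probe of the set in limma, where 0% of all probes passed. In the set 59 of 98 were lower on the west coast, 7 of them at an unadjusted p below 0.05, against 4.77% of all probes. Of the probes within the limits of the rule 64.8% were lower there. The lean did not last under other settings: 49 of 98 were lower under quantile normalization and 40 of 98 with slide effects fitted as fixed. With fixed slide effects 11 of the 98 were higher at an unadjusted p below 0.05 in limma, against 5.35% of all probes. Among fall fish alone none of the 100 passed in limma for west coast against Strait, against 1.14% of all probes.

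Origin and sex gave no call among the 100. Hatchery fish of summer and fall 2009 had lower values than wild fish in 81 of 99 probes, with a median difference of -0.09, and none passed in limma (0% of all probes). At an unadjusted p below 0.05, 14 were lower and 1 higher, against 4.3% and 4.87% of all probes. Over the probes within the limits of the rule 81.8% were lower in hatchery fish. With fixed slide effects 53 of 99 were lower. Among fall fish alone 77 of 99 were lower in hatchery fish (median difference -0.12), against 49.1% of all probes. Among summer fish alone 56 of 100 were lower (-0.01), against 50.4%, so the lean was mostly one of fall fish. Of 100 simulated differences of 0.5 in this design 92% were recovered. The simulated fish were independent with no slide effects, whereas the slide correlation fitted in this contrast was 0.18. The simulation thus cannot say how many differences of that size would have been seen in these fish. Over smolts and summer, fall and winter fish of known sex together, females had higher values than males in 82 of 99 probes, with a median difference of 0.08. Of all probes 49.7% were higher in females, and of those within the limits of the rule 80.9%. None of the 99 passed in limma (0.01% of all probes). There were 4 higher at an unadjusted p below 0.05, against 2.12% of all probes. With fixed slide effects 40 of 99 were higher in females, so the lean of the set by sex depended on the treatment of slides.

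Year of catch was tested in Strait fish of summer and fall together. The fall fish of 2008 were all wild, 7 of them from the northern and middle Strait. Those of 2009 were 17 hatchery and 15 wild fish there and 12 hatchery and 14 wild fish in the southern Strait. Year thus went with origin and area in part. In 2008 fish 58 of the 96 probes tested were higher than in 2009 fish and 1 passed, with 0.317% of all probes passing in that direction. Of all probes 50.0% were higher in 2008, and of those within the limits of the rule 61.3%. The lean of the set turned when slide effects were fitted as fixed, with 19 of 96 higher and a median difference of -0.29 in place of 0.07. C145R109 had a median of -0.26 in the 7 summer fish of 2008 (-1.37 to 1.41) and of -1.23 in 46 of 2009 (-2.88 to 1.88). In fall it had a median of -0.79 in the 8 fish of 2008 (-1.93 to 0.33) and of -1.69 in 52 of 2009 (-3.11 to 0.33). In both seasons the median of 2008 lay above that of 2009, and the ranges overlapped. Its difference was 0.89 (SE 0.22, limma adjusted p = 0.0325), and it did not pass with random (0.88) or fixed (0.86) slide effects.

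Behind this mean over seasons the set moved in opposite ways, and a test of the interaction of year and season was added after that was seen. In summer the fish of 2008 lay above those of 2009 in 93 of 96 probes, with a median difference of 0.47. They lay below them in 3, against 47.3% of all probes. In fall they lay below them in 85 of 100, with a median of -0.28, against 52.7% of all probes. The mean over the set was 0.23 ± 0.44 (SD, n = 7) in summer 2008, -0.24 ± 0.38 (SD, n = 49) in summer 2009, -0.79 ± 0.19 (SD, n = 8) in fall 2008 and -0.52 ± 0.31 (SD, n = 58) in fall 2009. The year difference in fall minus that in summer was below 0 in 95 of 96 probes, with a median of -0.75, and 21 passed, which is 21.9% of those tested against 3.38% of all 19233 probes in that direction. Over the probes within the limits of the rule it was below 0 in 95.0%, and 23.7% passed. This interaction is also the summer to fall step of 2008 minus that of 2009. The rule used that step over both years together, and the pattern was seen in these fish before the test. The calls are thus a description and no independent support. The 7 summer fish of 2008 lay on 3 slides and the 8 fall fish of 2008 on 4 others. With random slide effects 4 of the 96 passed, against 0.676% of all probes in either direction. With fixed ones none did in limma (0.0104% of all probes), with 64 of 96 below 0. Slide and the year in each season can hardly be told apart here, and origin and area went with year in part.

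C223R081 and C143R139 had the largest such interaction. C223R081 had a median of 0.98 in summer 2008 (-0.95 to 2.36), 0.01 in summer 2009 (-2.46 to 2.29), -0.80 in fall 2008 (-2.42 to -0.14) and -0.13 in fall 2009 (-3.04 to 2.20). All 8 fall fish of 2008 lay below 0, and the fish of 2009 covered nearly the whole range in both seasons. The interaction was -1.83 (SE 0.50, limma adjusted p = 0.0189), and it was -0.69 with fixed slide effects, short of the threshold in limma. C143R139 had a median of 0.41 in summer 2008 (-0.58 to 2.61) and -1.09 in summer 2009 (-2.12 to 0.92), and of -1.34 in fall 2008 (-1.85 to -0.56) and -1.11 in 55 fish of fall 2009 (-2.54 to 2.06). The medians of the years were apart in summer and close in fall, and the ranges overlapped in both. Its interaction was -1.70 (SE 0.45, limma adjusted p = 0.0157) and turned to 0.94 with fixed slide effects.

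**Figure D5:**
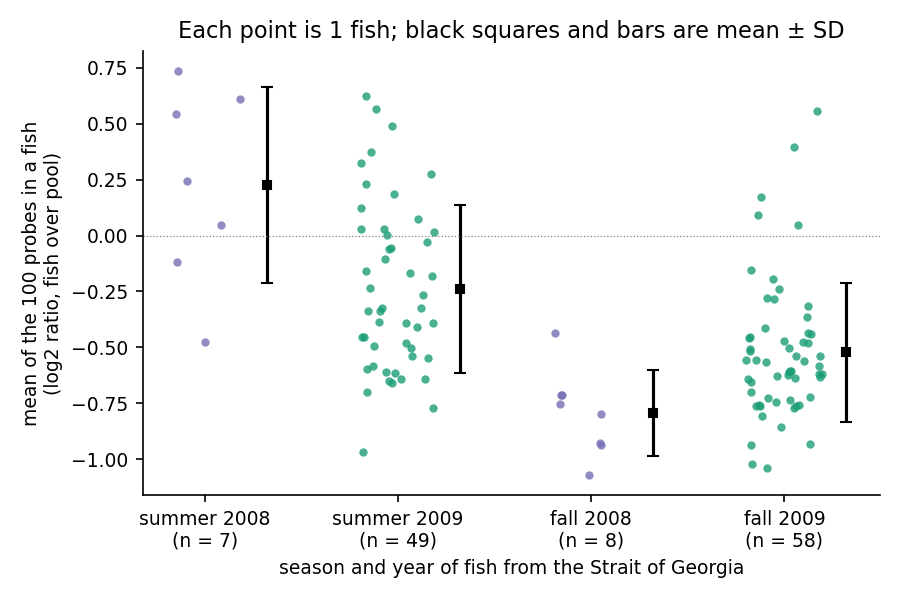
Mean of the 100 probes in each Strait of Georgia fish (y axis, log2 ratio of fish over pool) by season and year (x axis, with the number of fish); black squares and bars are the mean and SD. The 7 summer fish of 2008 average 0.23 and the 8 fall fish of 2008 average -0.79, against -0.24 and -0.52 in 2009.

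The probes also went together among fish of the same season, which is given as a description because the probes share arrays, slides and the lean by length and year above. Over the 4950 pairs of the set, the median Pearson r was 0.27 among 76 fall fish, 0.40 among 64 summer fish and 0.46 among 48 smolts, where the median over all pairs of measured probes was close to 0. With values centred within slides these medians were 0.07, 0.25 and 0.20. Against 100 probes that rose steadily by the mirrored rule the median r was -0.24 in fall, -0.35 in summer and -0.50 in smolts. A fish that was high in the falling probes thus tended to be low in the rising ones, less so once slides were centred.

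The closest pair in fall was C069R140 and C044R134, with r of 0.887 among 76 fall fish, 0.954 among 64 summer fish, 0.965 among 48 smolts and 0.948 over 220 fish. Their season medians ran side by side: C069R140 at 0.48, 0.33, 0.03, -0.15 and -0.72 and C044R134 at 0.40, 0.26, 0.21, -0.16 and -0.75 from parr to fall. The files do not say whether both target 1 transcript. On the array the set was spread over the surface, with 25, 24, 21 and 30 probes in its 4 equal fields, and 2 probes lay next to each other.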

How the data were processed

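The authors deposited 1 table with a normalized value per probe and fish, here read as log2 ratios. A second deposited table of log2 values was identical except for 3168 cells left empty for 1 parr. The spot quantification, normalization, log base, ratio direction and the filter behind the empty cells (47.3% of all) were not found in the sources used here. Array medians lay between -0.01 and 0.03, and the number of arrays limits the precision. No dyes were swapped, per the labels' protocols. The interquartile range of an array averaged 0.76 ± 0.12 (SD, n = 9 parr) and 0.59 ± 0.07 (SD, n = 48 smolts).

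Fish were grouped by the season label and are separate animals, per the labels. The probes, the named-probe rule and the tests were chosen with earlier results of these data known. Named were the first 2 by the rule, the 2 with the largest fall, those at its border, up to 2 in each direction per test, the 4 with extreme winter differences and the closest pair. Tests used limma 3.58.1 in R 4.3.3 (lmFit, eBayes) over every probe with a value in at least 50% of the fish of each group, with Benjamini-Hochberg adjustment and a threshold of 0.05. Each probe was fitted on the fish with a value, and the 60 control rows were left out. A recorded mass of 0 (24 fish of the series) was read as missing for the condition factor. Alternatives were slide as a block (fixed or random), quantile normalization, a minimum of 80% measured, trend and robust eBayes, fall or summer fish alone and further covariates. The code was tested on simulated data of independent fish and no slide effects. Other values were computed with Python 3.11.15, numpy 2.4.6 and pandas 2.3.3.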

Additional observations from a re-analysis of the deposited data

Results flagged for a closer look

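In sets of 4 to 10 fish, 34 sets of values were examined in parr and winter (the mean over the 100 probes and each named probe of the set), and 3 held a fish far from the others, all parr. Chance gives about 1 in 20. C191R023 was -0.56 in parr replicate 9 and between 2.91 and 3.79 in the other 8 parr. C250R152 was -1.15 in parr replicate 8 and between -0.19 and 0.40 in the others, and C044R134 was -0.49 in parr replicate 5 and between 0.23 and 0.79 in the others. The 3 probes point to 3 different fish. Over the whole set parr replicate 9 was also the lowest parr, at 0.10, and the others lay between 0.42 and 0.77. Over the 100 rising probes its mean was -0.58, and the other parr lay between -1.30 and -1.07. Spring replicate 2 lay at -1.21 over the rising probes, and the other spring fish between -0.68 and 0.48. Over the falling set it lay at 0.53, within their range. What sets each of these fish apart was not tested.

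The year difference changed with season for C223R081, at -1.83, and for C143R139, at -1.70 (year difference of 2008 minus 2009 in fall minus that in summer, limma adjusted p = 0.0189 and 0.0157). Fall and summer fish of 2008 lay on separate slides, and neither probe passed in limma with fixed or random slide effects. The test was added after the pattern was seen. It sets the summer to fall step of 2008 against that of 2009, and the rule used that step over both years.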

How the results depend on the processing

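The median fall of the set from parr to fall lay between -1.02 and -0.95 without parr replicate 9 and spring replicate 2, under quantile normalization, with slide effects subtracted and with season means, alternatives chosen after seeing the data. Which probes the rule chose depended more on the processing: 41 of the 100 were chosen again with season means, 65 with at least 80% of fish measured, 48 with fish of 2009 and parr, and 19 with slide effects subtracted. It chose 92 again with no limit on the SD, 71 under quantile normalization and 71 without those 2 fish. All 100 were chosen again from the second deposited table, which was identical except for cells left empty for 1 parr. That alternative could hardly change the choice. C115R011 and C143R139, named after their values were seen, were chosen under all 8 alternatives, that one included.

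For fork length the 3 calls in the set became 1 with fixed slide effects and 0 in limma in fall fish alone, summer fish alone or with further covariates, and the share of all probes that passed went from 2.54% to 0.615%, 0.664%, 0% and 0.665%. For the southern Strait the 1 call became 2 under quantile normalization, and the share of all probes went from 0.155% to 0.362%. It became 0 in limma with fixed slide effects, with at least 80% measured and in fall or summer fish alone. The shares of all probes there were 0%, 0.129%, 0.142% and 0%. For 2008 against 2009 the 1 call became 4 with fixed slide effects (all lower in 2008), 3 in fall fish alone (all lower) and 4 in summer fish alone (all higher). The share of all probes that passed in either direction went from 0.603% to 3.33%, 2.8% and 0.697%. With random slide effects or further covariates the call became 0 in limma, with 0.354% and 0.458% of all probes. For the year difference by season, added after seeing the data, the 21 calls became 13 under quantile normalization and 4 with random slide effects. The share of all probes that passed in either direction went from 5.42% to 4.64% and 0.676%. With fixed slide effects the calls became 0 in limma, where 2 of 19233 probes passed and C143R139 turned to 0.94. Hatchery origin gave 1 call in fall fish alone, C209R002, named after its values were seen, where 0.481% of all probes passed. The other 63 of the 85 summary values stayed within 1.5 times their main value or within the spread among fish, and the causes of the changes were not tested. Many of the 63 were counts of 0 calls that stayed at 0, which says little about the lean of the set. For sex the count stayed at 0 while the probes lower in females went from 17 of 99 to 59 of 99 with fixed slide effects.

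No paired analysis was possible because replicate numbers only follow the order of the samples and tie no fish of one season to a fish of another. Seasons shared few slides, parr were of 1 river and year, and season medians of 9 parr and 9 winter fish rest on few arrays. With 40 of the smolts from other rivers than the parr, the first step cannot be read as a change of stage alone.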
